A study of Mus musculus with 85 samples.

Results

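The gene for tau, Mapt, was followed in the mouse hippocampus together with the kinase genes Gsk3a, Gsk3b, Cdk5, Mark1, Mark2 and Fyn, the activator of Cdk5 (Cdk5r1), and Bin1, whose product binds tau. These 9 genes were chosen by name, and every row of the deposited expression table whose gene symbols include one of them was taken. They fill 10 of the 56090 rows, which became 53891 loci once rows with the same symbol were summed. All 9 passed the filter on low values, which left 21297 loci for testing.

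RNA of the hippocampus was sequenced from 85 mice aged 8 months, with 1 library per mouse. Controls were C57BL/6J mice, and the mice called AD here carried the strain name APPswePSEN1dE9, a transgenic model of amyloid deposition with no mutant tau. Each genotype was kept on a standard feed or on a feed restricted in methionine. Males formed the groups MWT (control, standard, n = 11), MWTMR (control, restricted, n = 10), MAD (AD, standard, n = 11) and MADMR (AD, restricted, n = 11), and females the groups FWT (n = 10), FWTMR (n = 10), FAD (n = 11) and FADMR (n = 11) in the same order. The labels do not name the promoter of the transgenes, which in the strain of this name is that of the prion protein. The Prnp locus was at 1201 ± 151 scaled FPKM in the 44 AD mice and 335 ± 48.0 in the 41 controls (mean ± SD), with no overlap. App was higher in AD mice as well, at 3512 ± 595 against 2817 ± 406. Xist ran from 23.2 to 198 in females and from 0.109 to 0.864 in males.

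Tau binds microtubules in axons, and phosphorylation at many sites loosens that binding. GSK-3 (alpha and beta forms, from Gsk3a and Gsk3b) and CDK5 phosphorylate sites that are modified in the tangles of Alzheimer disease. The MARK kinases phosphorylate the microtubule-binding repeats. CDK5 is active only with a partner such as p35, the product of Cdk5r1. FYN phosphorylates a tyrosine of tau and acts at synapses, and BIN1, a membrane-bending protein of the amphiphysin family, binds tau, and its gene is a known risk locus for Alzheimer disease. These are events of proteins: RNA levels do not report phosphorylation.

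Of the 9 genes, 6 had 1 row of their own. By the RefSeq annotation of GRCm38.p6, Gsk3a lies at chr7:25228258-25237851, Gsk3b at chr16:38089001-38246084, Cdk5 at chr5:24407597-24423587, Mark1 at chr1:184896424-184999954 and Fyn at chr10:39369743-39565381. Mapt, at chr11:104229409-104332090, was on 2 rows, which were summed. Cdk5r1, at chr11:80477023-80481184, shared 1 assembled row with its neighbour Psmd11, the gene of a proteasome subunit at chr11:80428615-80473248. Mark2 shared a row with AI846148 and with Rtn3, a reticulon of the endoplasmic reticulum. These 2 rows are called the Cdk5r1 locus and the Mark2 locus: their values hold the other genes too and cannot be read as Cdk5r1 or Mark2 alone.

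RefSeq promoters were read for 5 of the 9 genes, Gsk3a, Gsk3b, Mark1, Mark2 and Fyn. Those of Gsk3a, Mark1 and Fyn are shown because these genes rose and fell together from mouse to mouse, and that of Gsk3b because it is the paralog of Gsk3a. The promoters of Mark2, whose locus moved with them, are not shown. Whether promoter sequence bears on the joint movement was not tested. Each runs from 250 bases before to 50 bases after the annotated start on GRCm38.p6, 5′ to 3′ on the strand of the gene. For Mark1, which has 2 annotated starts in the table, the outer one is given. For Fyn the annotated start used lies inside the gene span given above, downstream of its first base. Capitals mark CCAAT boxes (CCAAT or, on the other strand, ATTGG), GC boxes (GGGCGG or CCGCCC) and TATA boxes (TATAAA or TTTATA), and no 2 marked boxes overlap.
Gsk3a, chr7:25237802-25238101, minus strand: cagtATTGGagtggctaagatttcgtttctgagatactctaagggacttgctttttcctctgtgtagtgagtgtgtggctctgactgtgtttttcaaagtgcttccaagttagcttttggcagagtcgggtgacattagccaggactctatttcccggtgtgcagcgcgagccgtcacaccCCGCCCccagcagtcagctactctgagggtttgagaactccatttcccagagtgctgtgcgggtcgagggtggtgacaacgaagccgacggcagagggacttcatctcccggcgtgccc
Mark1, chr1:184999905-185000204, minus strand: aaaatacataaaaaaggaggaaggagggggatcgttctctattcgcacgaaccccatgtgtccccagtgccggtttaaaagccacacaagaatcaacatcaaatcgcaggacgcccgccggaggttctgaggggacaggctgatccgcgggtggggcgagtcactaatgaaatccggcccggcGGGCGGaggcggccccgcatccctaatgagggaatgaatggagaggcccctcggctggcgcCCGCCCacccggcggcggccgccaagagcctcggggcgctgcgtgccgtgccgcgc
Fyn, chr10:39369549-39369848, plus strand: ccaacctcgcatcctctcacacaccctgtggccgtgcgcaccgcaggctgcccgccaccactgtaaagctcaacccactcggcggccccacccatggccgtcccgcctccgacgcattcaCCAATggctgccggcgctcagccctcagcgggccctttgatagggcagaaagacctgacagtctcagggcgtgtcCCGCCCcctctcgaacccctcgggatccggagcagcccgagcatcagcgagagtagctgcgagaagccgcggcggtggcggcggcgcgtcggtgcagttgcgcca
Gsk3b, chr16:38088751-38089050, plus strand: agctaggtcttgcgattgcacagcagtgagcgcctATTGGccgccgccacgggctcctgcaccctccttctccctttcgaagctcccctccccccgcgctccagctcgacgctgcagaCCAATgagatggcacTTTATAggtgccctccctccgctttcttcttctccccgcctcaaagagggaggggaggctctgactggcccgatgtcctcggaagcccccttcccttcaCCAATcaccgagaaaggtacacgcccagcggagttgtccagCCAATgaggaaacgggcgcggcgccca
Gsk3a and Fyn each held 1 CCAAT box and 1 GC box, Mark1 held 2 GC boxes, and Gsk3b held 4 CCAAT boxes, 1 TATA box and no GC box. Of all 32851 promoters in the table, 37.4% held a CCAAT box, 35.7% a GC box and 13.6% a TATA box. The GC content was 54.3% for Gsk3a, 64.0% for Mark1, 69.0% for Fyn and 63.0% for Gsk3b, against a median of 52.7% over all promoters.

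Levels are given as FPKM, fragments scaled by transcript length and library total, divided by a library factor (scaled FPKM). FPKM is per length, so that genes can be set in order. Over all 85 mice the Mark2 locus was highest at 1701 ± 242 scaled FPKM. Bin1 followed at 218 ± 16.9 and Mapt at 171 ± 22.5. Fyn was at 70.2 ± 6.48, Gsk3b at 50.8 ± 10.5 and Mark1 at 41.01 ± 7.01. The Cdk5r1 locus was at 40.01 ± 10.5, Cdk5 at 38.4 ± 10.4 and Gsk3a at 20.5 ± 2.56. Bin1 exceeded Mapt in 82 of 85 mice and Gsk3b exceeded Mark1 in 80, and both orders held in the means of all 8 groups. Mark1, the Cdk5r1 locus and Cdk5 did not differ beyond their spread: Mark1 was above the Cdk5r1 locus in 39 of 85 mice, and the Cdk5r1 locus above Cdk5 in 53.

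**Figure D1:**
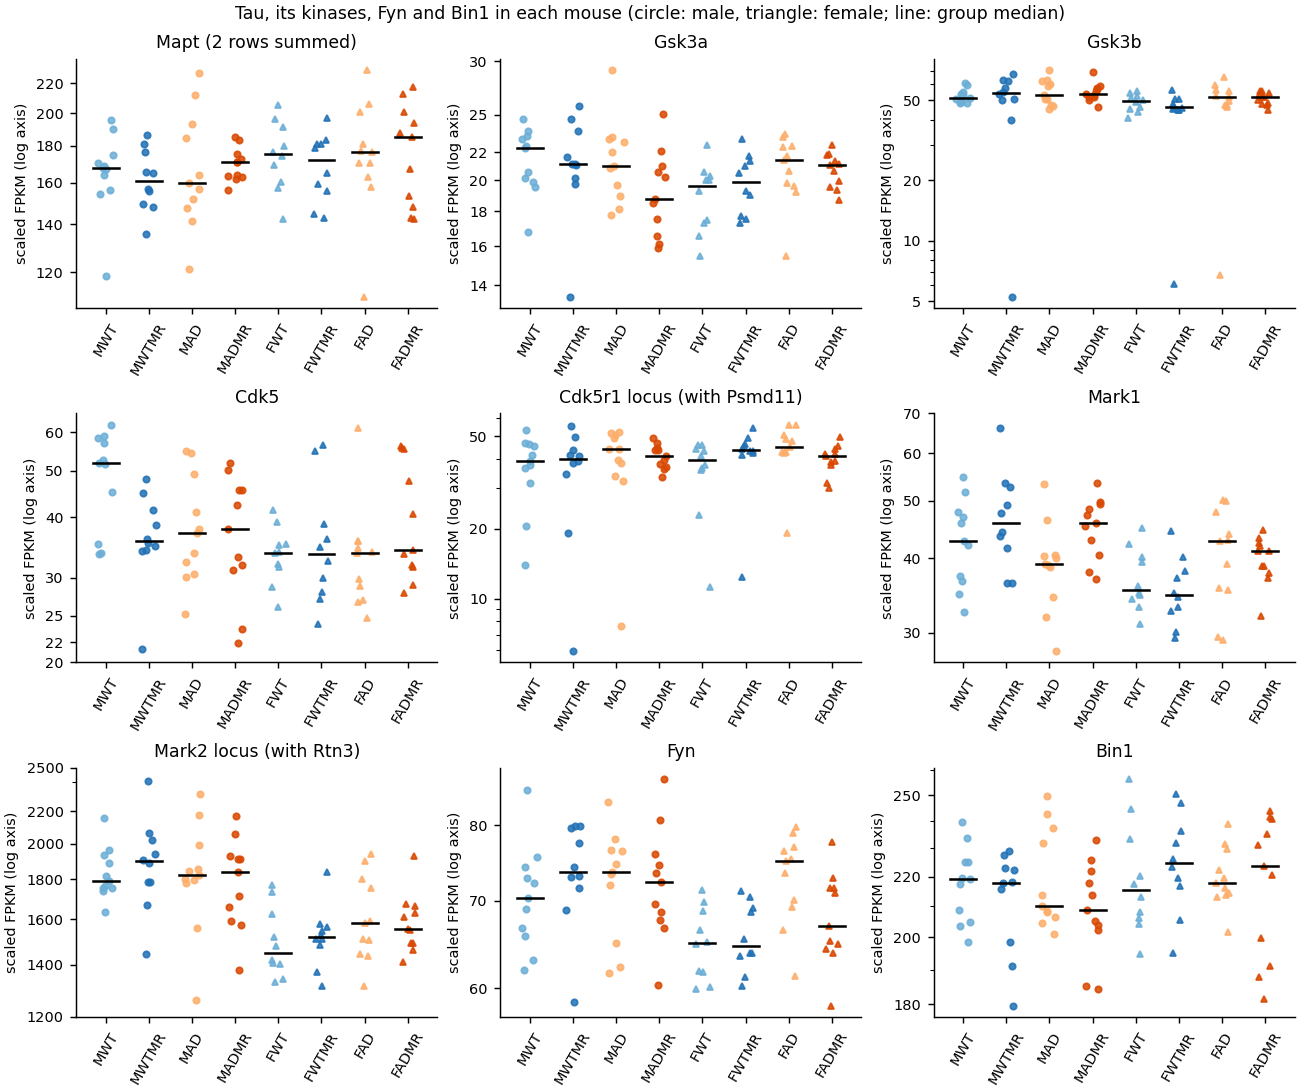
Scaled FPKM of each gene (log axis) in the 85 mice by group, with circles for males, triangles for females and a line at the group median. Groups overlap for every gene; 3 libraries stand at 5.27 to 6.80 for Gsk3b, and Cdk5 is above 50 in 7 of 11 MWT mice.

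Mapt had group medians from 160 in MAD to 185 in FADMR. Its lowest, median and highest scaled FPKM were 119, 168 and 195 in MWT, 136, 161 and 187 in MWTMR, 121, 160 and 227 in MAD, and 156, 171 and 185 in MADMR. In females they were 142, 176 and 205 in FWT, 143, 172 and 197 in FWTMR, 111, 177 and 229 in FAD, and 142, 185 and 218 in FADMR. All groups overlapped, and the mice on restricted feed among AD males were the tightest. The first of the 2 rows averaged 114 ± 12.2 and the second 56.8 ± 15.4, so that the second made up 17.9% to 47.6% of the sum (median 32.4%). From mouse to mouse within groups the rows moved together only in part (Pearson r = 0.34, permutation p = 0.00218; Spearman rho = 0.34, p = 0.00245; r = 0.41 without the 2 mice farthest from the median). What distinguishes the rows is not given in the sources used here.

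The GSK-3 genes differed in level and in behaviour. Gsk3a ran from 13.5 to 29.1 scaled FPKM over all mice, with group medians between 18.8 in MADMR and 22.3 in MWT. Gsk3b ran from 39.7 to 70.2 in 82 mice, with group medians between 46.0 in FWTMR and 54.4 in MWTMR. In the other 3 it stood at 5.27 (MWTMR replicate 9), 6.08 (FWTMR replicate 9) and 6.80 (FAD replicate 9). In the first of these libraries Gsk3a was at 21.1, Mark1 at 43.6 and Fyn at 71.6, near their group medians of 21.1, 45.9 and 73.7. In FAD replicate 9 Gsk3a was at 21.4, Mark1 at 42.9 and Fyn at 73.6, but Mapt, at 111, was the lowest of all 85 mice and Cdk5, at 24.7, the lowest of its group. Such single low libraries were common in the table: of 5361 loci with a median of at least 20 scaled FPKM, 840 (15.7%) had at least 1 library below 0.2 times their median, and 466 (8.69%) had 3 or more. Because of the 3 low mice the log2 ratio of Gsk3a to Gsk3b had a mean of −1.25 ± 0.61 (SD, n = 85) but a median of −1.35, and medians in the 8 groups between −1.52 in MADMR and −1.22 in FWTMR.

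Cdk5 was spread widely. Its lowest, median and highest scaled FPKM were 33.6, 51.9 and 62.2 in MWT, 21.3, 35.8 and 48.1 in MWTMR, 25.2, 37.1 and 54.9 in MAD, and 21.9, 37.9 and 51.7 in MADMR. In females they were 26.0, 33.8 and 41.4 in FWT, 24.1, 33.5 and 56.5 in FWTMR, 24.7, 33.6 and 61.2 in FAD, and 27.9, 34.2 and 56.2 in FADMR. Values above 50 were seen in 7 of 11 MWT mice, in 0 of 10 FWT and 0 of 10 MWTMR mice, and in 1 to 3 mice of each other group. The threshold of 50 was set after the values were seen. The Cdk5r1 locus ran from 23.0 to 56.1 in 77 mice and from 5.96 to 20.6 in the other 8, of which 2 were MWT, 2 MWTMR, and 1 each FWT, FWTMR, MAD and FAD. Its log2 ratio to Cdk5 had group medians from −0.49 in MWT to 0.53 in FAD, with an SD of at least 0.38 in every group.

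Mark1 had medians of 42.8 in MWT, 45.9 in MWTMR, 39.2 in MAD and 45.9 in MADMR, and of 35.5, 34.8, 42.8 and 41.1 in FWT, FWTMR, FAD and FADMR. The Mark2 locus had medians from 1791 to 1897 in the male groups and from 1449 to 1580 in the female groups. Fyn, of the 9 the one with the second lowest SD about the group means (0.12 on the log2 scale), had medians of 70.4, 73.7, 73.7 and 72.4 in MWT, MWTMR, MAD and MADMR. In FWT, FWTMR, FAD and FADMR its medians were 65.0, 64.7, 75.1 and 67.0. Bin1, at chr18:32376618-32435740, had the lowest SD, 0.11, where loci within 0.5 log2 units of its level had a median SD of 0.22. Its group medians lay between 209 in MADMR and 225 in FWTMR. The SD of Gsk3b was 0.57 and that of the Cdk5r1 locus 0.56, against medians of 0.24 and 0.26 among loci of like level.

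Between AD and control mice none of the 9 genes passed the test. Differences were tested in limma on log2(scaled FPKM + 1), with p adjusted by Benjamini-Hochberg over all 21297 loci and 0.05 as the threshold; fold changes on this scale understate those of low genes. Averaged over sex and feed, 370 loci (1.74%) differed between the genotypes, and 0 of the 9. Mapt differed by 0.04 ± 0.04 (SE; 95% interval −0.05 to 0.12; adjusted p = 0.763 in limma), with 24 of 44 AD mice above the control median. Gsk3a differed by 0.02 ± 0.04, Mark1 by 0.03 ± 0.05, the Mark2 locus by 0.02 ± 0.04, Bin1 by −0.01 ± 0.03 and Cdk5 by −0.05 ± 0.07, with adjusted p from 0.818 to 0.896 in limma. The upper bounds of the 95% intervals were 0.09 for Gsk3a and 0.12 for Mark1. Fyn had the smallest p of the 9: it was at 71.5 ± 6.42 scaled FPKM in AD mice and 68.8 ± 6.32 in controls, a difference of 0.06 ± 0.03 (unadjusted p = 0.0419, adjusted p = 0.343 in limma; 29 of 44 AD mice above the control median).

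The largest genotype differences in size belonged to the loci with single low libraries. The Cdk5r1 locus differed by 0.18 ± 0.12 (adjusted p = 0.541 in limma) and by 0.02 without its 8 low libraries. Gsk3b differed by 0.15 ± 0.12 (adjusted p = 0.623 in limma) and by 0.06 without its 3 low libraries. Both alternatives were chosen after the data were seen.

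**Figure D2:**
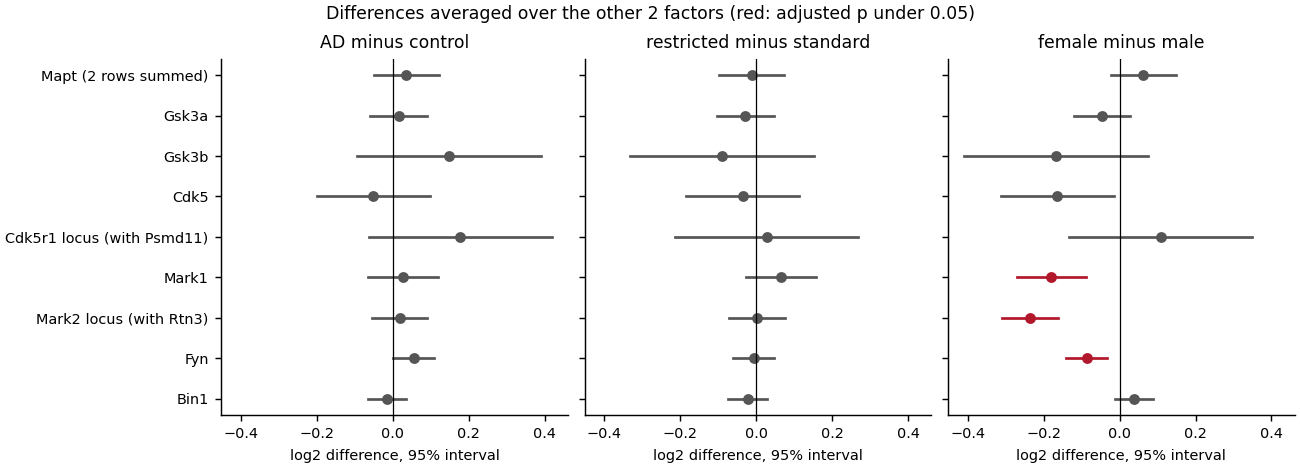
Log2 differences of the 9 genes with 95% intervals (limma, 85 mice) for genotype, feed and sex, each averaged over the other 2 factors; red marks an adjusted p under 0.05. Intervals of genotype and feed include 0 except that of Fyn for genotype (0.00 to 0.11), which did not pass the adjusted test, and Mark1, the Mark2 locus and Fyn are lower in females.

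In single strata, genotype differences were called at 13 loci in males on standard feed (0.061%) and 24 in males on restricted feed (0.113%). They were called at 110 in females on standard feed (0.517%) and 293 in females on restricted feed (1.38%), and at 0 of the 9 genes in each. The difference nearest to the threshold was that of Fyn in females on standard feed. Its values were 61.4 to 79.8 in FAD (median 75.1) and 59.99 to 71.4 in FWT (median 65.0), so that the groups overlapped while 10 of 11 FAD mice were above the FWT median. The difference was 0.16 ± 0.05 (95% interval 0.06 to 0.27; unadjusted p = 0.00326, adjusted p = 0.170 in limma). The FAD mouse lowest in Fyn, replicate 5, was also highest of all 85 in the share of FPKM in loci without a gene symbol, 12.5%; without it the difference was 0.19 and passed (adjusted p = 0.0380 in limma). With that share as a covariate the difference was 0.10 (adjusted p = 0.317 in limma), and with the mean of neuron markers as a covariate 0.11 (adjusted p = 0.486). Both covariates were added after the data were seen. In females on restricted feed the difference of Fyn was 0.05 ± 0.05, and in males 0.04 ± 0.05 on standard and −0.02 ± 0.05 on restricted feed (adjusted p from 0.728 to 0.958 in limma).

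In males on standard feed Cdk5 was at 38.8 ± 10.1 scaled FPKM in MAD and 49.1 ± 10.6 in MWT (log2 difference −0.34 ± 0.15, unadjusted p = 0.0229, adjusted p = 0.605 in limma; 9 of 11 MAD mice below the MWT median). In the other 3 strata Cdk5 differed by 0.01, −0.02 and 0.15. Genotype and sex interacted at 134 loci (0.629%), again at none of the 9. Mark1 (interaction 0.23 ± 0.09, unadjusted p = 0.0152, adjusted p = 0.143 in limma) was lower in AD than control males, at −0.13 on standard and −0.04 on restricted feed, and higher in AD than control females, at 0.11 and 0.17, each short of the threshold. Gsk3a had an interaction of 0.16 ± 0.08 (unadjusted p = 0.0342, adjusted p = 0.197 in limma), with −0.00 and −0.13 in males and 0.13 and 0.06 in females. The share of FPKM in loci without a symbol, with which both genes moved from mouse to mouse, was 6.31 ± 1.36% in MWT and 6.45 ± 1.37% in MAD, and 8.35 ± 1.34% in FWT and 7.34 ± 2.04% in FAD. On restricted feed it was 6.18 ± 1.26% in MWTMR, 7.03 ± 1.24% in MADMR, 8.30 ± 1.51% in FWTMR and 7.42 ± 0.988% in FADMR. With this share as a covariate, added after the data were seen, the interaction was 0.08 for Mark1 and 0.02 for Gsk3a, and neither passed.

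Between feeds none of the 9 genes passed the test. Averaged over sex and genotype, 30 loci differed between feeds (0.141%) and 0 of the 9. The differences of the 9 lay between −0.09 (Gsk3b) and 0.07 (Mark1), with adjusted p from 0.812 to 0.996 in limma. Mapt differed by −0.01 ± 0.04 (95% interval −0.10 to 0.07) and Bin1 by −0.02 ± 0.03. The intervals were widest for Gsk3b (−0.33 to 0.15) and the Cdk5r1 locus (−0.21 to 0.27). In strata, feed differences were called at 0 loci in control males (0%), 3 in AD males (0.0141%), 15 in control females (0.0704%) and 3 in AD females (0.0141%). The count of 0 in control males came with 1435 loci at an unadjusted p under 0.05, and with 228 called when limma's array weights were used.

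The largest feed difference among the 9 was that of Cdk5 in control males. The log2 difference was −0.40 ± 0.15 (95% interval −0.70 to −0.10; unadjusted p = 0.0100, adjusted p = 0.571 in limma), and all 10 MWTMR mice were below the MWT median of 51.9. The ranges of 21.3 to 48.1 and 33.6 to 62.2 overlapped. This comparison and that of MAD with MWT share the MWT mice. In AD males, control females and AD females Cdk5 differed with feed by −0.05, 0.06 and 0.24. In AD males Mark1 was at 45.3 ± 5.204 on restricted and 39.2 ± 6.76 on standard feed (log2 difference 0.21 ± 0.09, unadjusted p = 0.0221, adjusted p = 0.725 in limma; 9 of 11 mice above the standard median), and Gsk3a at 19.3 ± 2.82 and 21.5 ± 3.15 (−0.15 ± 0.07, unadjusted p = 0.0469, adjusted p = 0.822 in limma). With the share of loci without a symbol as a covariate, an alternative added after seeing the data, the Mark1 difference in AD males was 0.27 and passed (adjusted p = 0.0388 in limma). In AD females Fyn differed with feed by −0.10 ± 0.05 (unadjusted p = 0.0584, adjusted p = 0.799 in limma; 10 of 11 FADMR mice below the FAD median), a comparison that shares the FAD mice with the genotype comparison. The interaction of genotype with feed was called at 1 locus (0.0047%) and that of feed with sex at 0 (0%), in neither case one of the 9. The latter count came with 1875 loci at an unadjusted p under 0.05 and with 367 called under array weights. In the latter, Cdk5 had 0.38 ± 0.15 (unadjusted p = 0.0143, adjusted p = 0.407 in limma) and Mark1 −0.20 ± 0.09 (unadjusted p = 0.0305, adjusted p = 0.492 in limma).

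**Figure D3:**
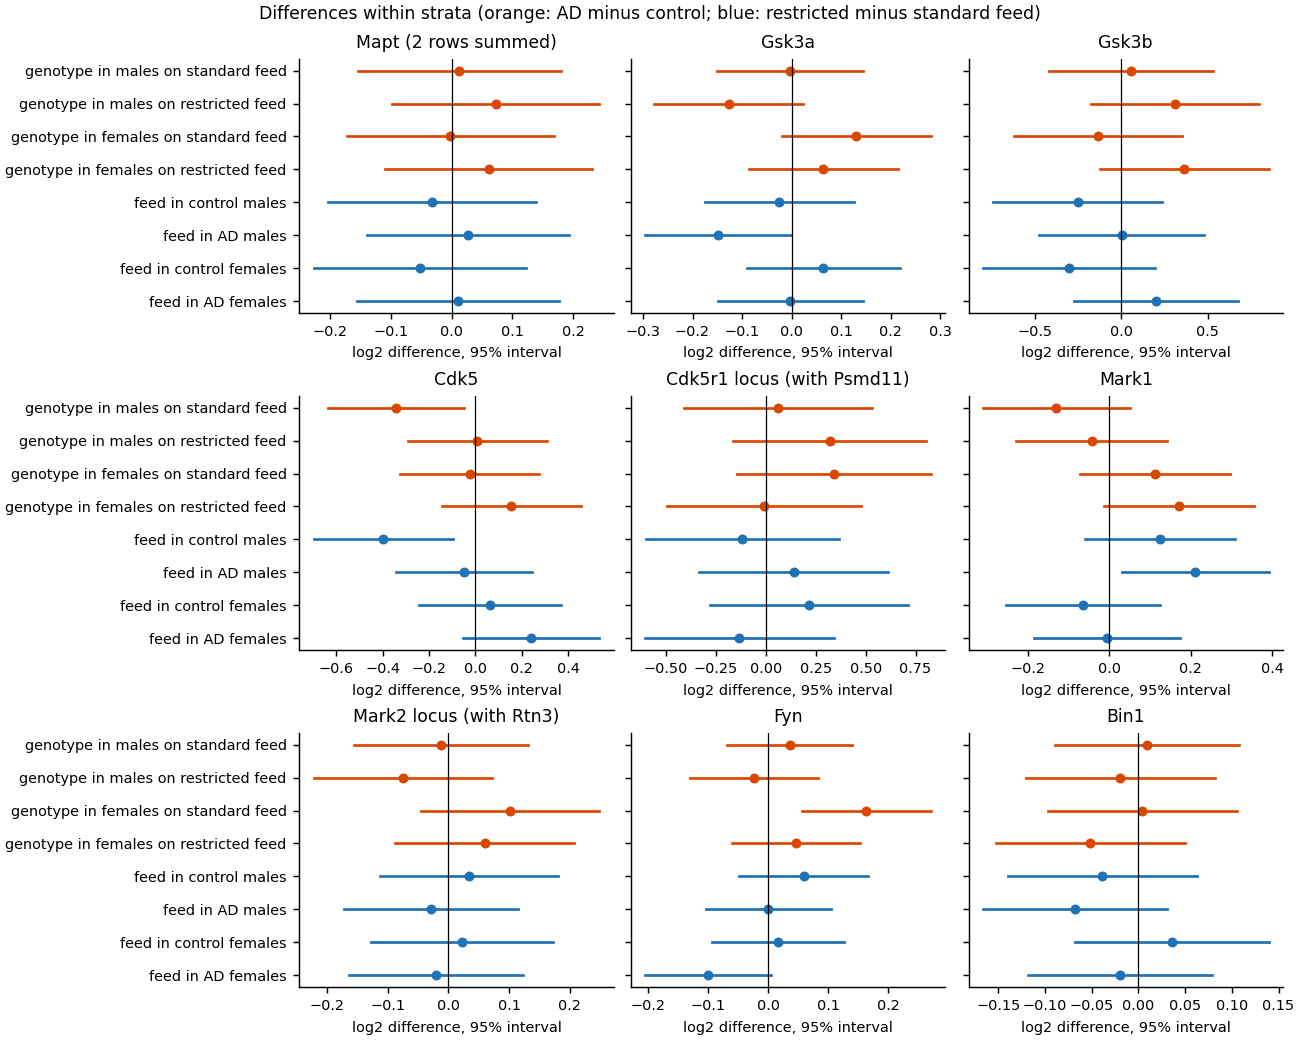
Log2 differences with 95% intervals within each stratum, orange for AD minus control and blue for restricted minus standard feed (limma; the scale differs between genes). None passed the adjusted test; intervals that exclude 0 are those of Cdk5 in males on standard feed and in control males, Mark1 and Gsk3a in AD males, and Fyn in females on standard feed.

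Between sexes 3 of the 9 genes differed, all lower in females, in a comparison that called 10747 loci (50.5%), 5840 higher and 4907 lower (54.3% higher, and 68.8% with FPKM as deposited or 67.1% with equal totals). The share of 3 of 9 is thus no larger than that over all loci. Mark1 was at 38.4 ± 5.49 scaled FPKM in 42 females and 43.6 ± 7.43 in 43 males (log2 difference −0.18 ± 0.05, adjusted p = 0.000870 in limma; 34 of 42 females below the male median). The Mark2 locus was at 1560 ± 164 and 1838 ± 227 (−0.24 ± 0.04, adjusted p = 2.84e-07 in limma; 38 of 42). Fyn was at 68.1 ± 5.67 and 72.3 ± 6.61 (−0.09 ± 0.03, adjusted p = 0.00515 in limma; 34 of 42). The ranges of the sexes overlapped for each of them.

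The other 6 did not pass. Cdk5 differed by −0.16 ± 0.07 (adjusted p = 0.0603 in limma; 31 of 42 females below the male median). Gsk3b differed by −0.17 ± 0.12 (adjusted p = 0.249 in limma), and without its 3 low libraries by −0.11 with an adjusted p of 0.00483 in limma, so that it then passed. Mapt (0.06 ± 0.04) and Bin1 (0.04 ± 0.03) had higher means in females with adjusted p of 0.217 and 0.196 in limma. With FPKM as deposited both passed, at 0.12 for Mapt and 0.09 for Bin1, and Fyn, at −0.03, did not; with equal totals Mapt and Bin1 passed as well and Fyn, at −0.04, did not (adjusted p = 0.199). Gsk3a differed by −0.05 ± 0.04 and the Cdk5r1 locus by 0.11 ± 0.12.

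Female and male libraries also differed as wholes. The share of FPKM in loci without a symbol was 7.83 ± 1.54% in females and 6.50 ± 1.303% in males, and rows at 1 FPKM or more numbered 19172 ± 440 and 18506 ± 470. With this share as a covariate, added after the data were seen, 4425 loci differed between the sexes. Mark1 then stood at −0.03 (adjusted p = 0.564 in limma), Fyn at 0.00 (0.00267, adjusted p = 0.945) and Gsk3a at 0.08 (adjusted p = 0.0134), while the Mark2 locus was at −0.10 and passed (adjusted p = 0.000927). The sex comparison called 50.5% of all loci. All 7 endothelium markers tested were lower in females (median difference −0.23), as were 4 of 6 markers of oligodendrocyte precursors. Of 7 meningeal markers 3 were higher and 0 lower, and of 12 oligodendrocyte markers 0 passed. Of 9 astrocyte markers 1 was higher and 2 were lower, and of 10 microglia markers 1 was higher and 3 were lower. Among 12 neuron markers, 7 were lower and 1 higher in females. The median of the summed FPKM of neuron markers lay between 4170 and 4869 in the male groups and between 3925 and 4227 in the female groups, with ranges over mice of 2801 to 5783 and 2654 to 4963. The summed endothelium markers ran from 169 to 519.6 in males and from 150.1 to 270.3 in females; their part in the sex differences was not tested. With the mean of the neuron markers as a covariate, also added after the data were seen, 1 of the 9 genes was called, the Mark2 locus. Mark1 was then at −0.10 and Fyn at −0.02. In bulk tissue fewer cells of a type and less RNA per cell cannot be told apart.

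Within groups, Gsk3a, Mark1, the Mark2 locus and Fyn rose and fell together. Of the 36 pairs among the 9 genes, 13 had a Pearson r of within-group deviations with an adjusted p under 0.05 by permutation (10 positive, 3 negative; 85 mice). The share of such pairs among all tested loci is not given here, so the count cannot be read as particular to these genes. Gsk3a and Fyn had r = 0.69 (rho = 0.71; r = 0.64 without the 2 mice farthest from the median), Gsk3a and Mark1 r = 0.61 (rho = 0.60; r = 0.58) and Mark1 and Fyn r = 0.63 (rho = 0.61; r = 0.60), each with an adjusted permutation p of 6e-05 from 1e-05, the smallest that 100000 resamples can give. Gsk3a with Fyn and Gsk3a with Mark1 were positive in all 8 groups. Their pairs with the Mark2 locus had r from 0.64 to 0.72.

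Gsk3b followed these genes by rank but not by Pearson r. Its r was 0.10 with Gsk3a, 0.07 with Mark1 and 0.16 with Fyn, with adjusted permutation p from 0.300 to 0.684. By ranks, on which its 3 low mice weigh less, rho was 0.28 with Gsk3a, 0.28 with Mark1 and 0.36 with Fyn (adjusted permutation p = 0.0169, 0.0154 and 0.000405), and 0.42 with the Mark2 locus (p = 0.000103). Cdk5 and the Cdk5r1 locus, enzyme and activator, had r = 0.10 (rho = 0.09; adjusted permutation p = 0.548).

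Mapt moved against Mark1, Fyn and the Mark2 locus and with Bin1, while with Gsk3a, Gsk3b and Cdk5 its r lay between −0.10 and 0.08. Its r was −0.37 with Mark1 (rho = −0.30), −0.34 with Fyn (rho = −0.31), −0.27 with the Mark2 locus (rho = −0.22) and 0.39 with Bin1 (rho = 0.38). In that order the adjusted permutation p of r was 0.00460, 0.00997, 0.0488 and 0.00211. That of rho was 0.0172, 0.0192, 0.0897 and 0.00344, so that by ranks the Mark2 locus did not pass. The r with Bin1 was positive in all 8 groups and 0.45 without the 2 farthest mice.

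**Figure D4:**
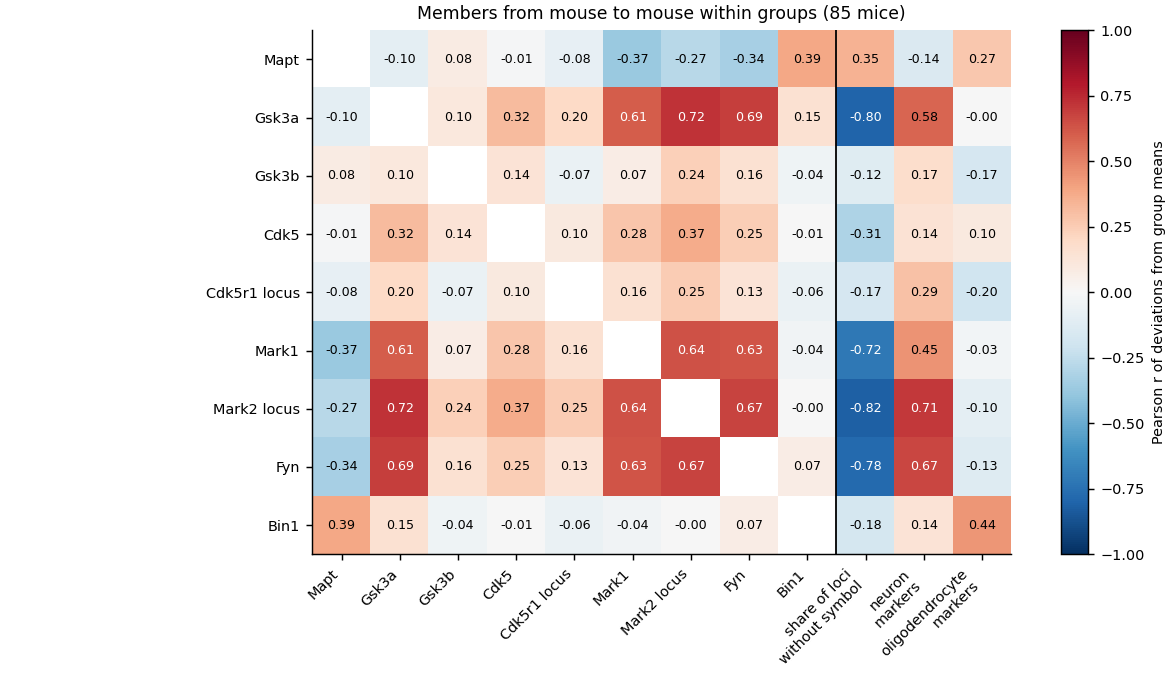
Pearson r of deviations from the group mean over 85 mice, for each pair of the 9 genes and, right of the line, with the share of FPKM in loci without a symbol and the mean of neuron and oligodendrocyte markers. Gsk3a, Mark1, the Mark2 locus and Fyn form a block of r from 0.61 to 0.72, and each has r between −0.82 and −0.72 with the share.

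The same genes followed the make-up of the library. How many other loci follow it as closely is not given here. Against the share of FPKM in loci without a symbol, Gsk3a had r = −0.80 (rho = −0.79; r = −0.77 without the 2 farthest mice), Fyn −0.78 (rho = −0.79; −0.75), Mark1 −0.72 (rho = −0.67; −0.69) and the Mark2 locus −0.82 (rho = −0.82; −0.81). Each of these had an adjusted permutation p of 2.25e-05, from 1e-05, in a family of 18 relations of which 11 passed. Cdk5 went the same way more weakly, with r = −0.31 (rho = −0.30, adjusted permutation p = 0.0108). Mapt went the other way, with r = 0.35 (rho = 0.30; r = 0.29; adjusted permutation p = 0.00712), and Bin1 had −0.18 (p = 0.124). At equal share, the partial r fell to 0.18 for Gsk3a with Fyn, 0.08 for Gsk3a with Mark1 and 0.17 for Mark1 with Fyn. That of Mapt with Bin1 was 0.48, that of Mapt with Mark1 −0.18, with Fyn −0.11 and with the Mark2 locus 0.02, and that of Mapt with Gsk3a, from −0.10, became 0.32. The 18 relations cover this share and a count of rows reaching 1 FPKM, and they and the partial r were added after the data were seen.

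**Figure D5:**
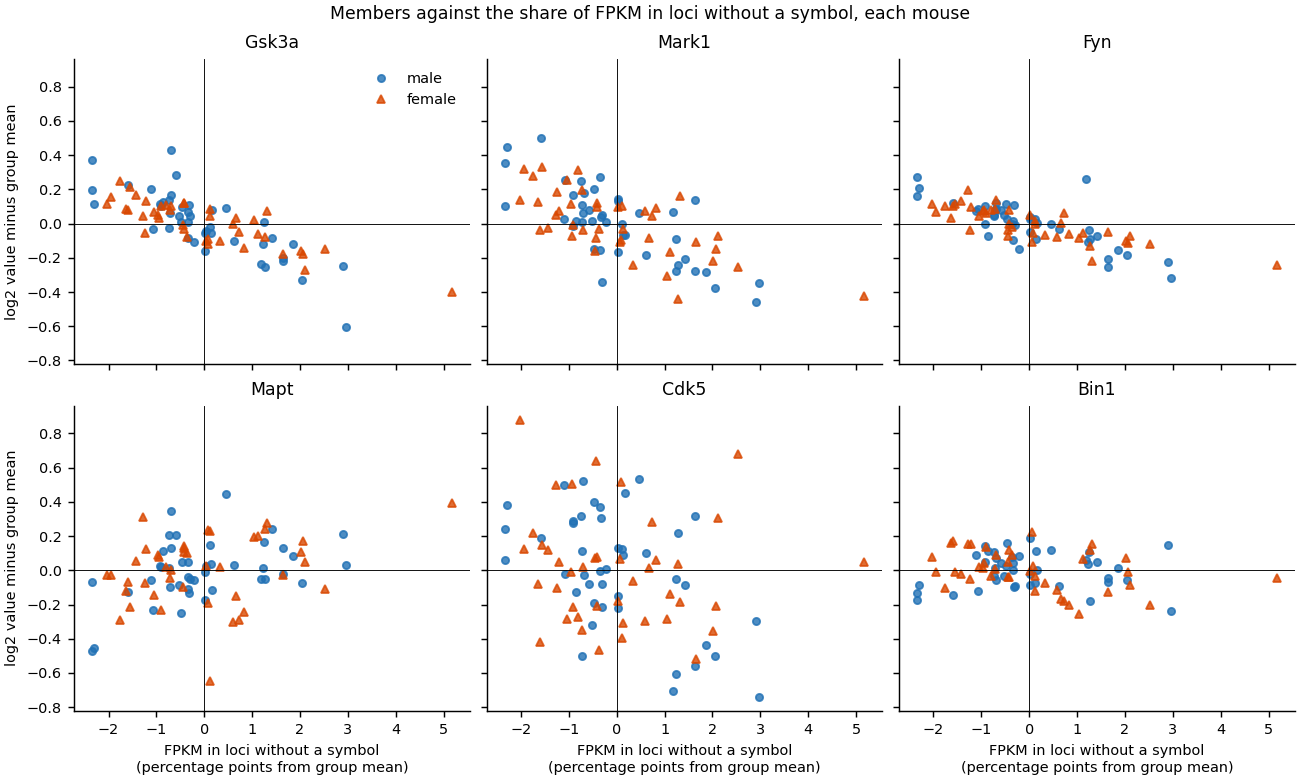
Deviation of 6 genes from their group mean (log2) against the deviation of the share of FPKM in loci without a symbol (percentage points), with 1 point per mouse, circles for males and triangles for females. Gsk3a, Mark1 and Fyn fall as the share rises (r = −0.80, −0.72 and −0.78). Cdk5 falls more weakly (−0.31), Mapt rises (0.35), and Bin1 is scattered (−0.18).

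Against the means of 10 lists of cell type and tissue markers, 15 of 90 relations passed, with no share over all loci to set beside them. The 15 were 4 with neuron markers, 5 with endothelium, 4 with microglia, and 1 each with oligodendrocyte and meningeal markers. Neuron markers went with the Mark2 locus (r = 0.71), Fyn (0.67), Gsk3a (0.58) and Mark1 (0.45), with adjusted permutation p of 0.000225, 0.000225, 0.000225 and 0.000643. Mark1 was higher with endothelium (r = 0.51, adjusted permutation p = 0.000225). At equal share of loci without a symbol, the partial r with neuron markers was 0.43 for the Mark2 locus and 0.37 for Fyn. For Gsk3a it was 0.17 and for Mark1 −0.01. Endothelium markers had r = 0.44 with Gsk3a, 0.43 with the Mark2 locus, 0.36 with Fyn and 0.30 with Cdk5. At equal share the partial r was 0.15, 0.12, 0.003 and 0.19 in that order, and 0.30 for Mark1. Microglia markers had r = 0.43 with Gsk3a, 0.39 with Cdk5, 0.34 with the Mark2 locus and 0.31 with Mark1. Their partial r at equal share was 0.12, 0.29, −0.08 and −0.04 in that order. Mapt had r = −0.14 with neuron markers and Bin1 0.14, and neither passed (p = 0.485 and 0.497). With oligodendrocyte markers Mapt had r = 0.27 (adjusted permutation p = 0.0885), and by ranks rho = 0.33 (adjusted permutation p = 0.0223). Bin1 went with oligodendrocyte markers (r = 0.44, rho = 0.40; r = 0.43 without the 2 farthest mice; adjusted permutation p = 0.000643) and against meningeal markers (−0.39, p = 0.00646). Bin1 is known to be expressed in oligodendrocytes as well as neurons. Of the 12 oligodendrocyte markers 0 differed with genotype, feed or sex on average.

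The genes nearest to each of the 9, by the highest r of within-group deviations among 10731 other single genes, are given with that r. For Gsk3a they were Arl8a (0.88) and Eif2ak1 (0.85), for Mark1 Tm9sf4 (0.80) and Ept1 (0.79), and for Fyn Aars (0.83), Terf2ip (0.82) and Cbfa2t2 (0.81). For the Mark2 locus they were Cyb5b, Slc30a9 and Gpr158 (0.90, 0.90 and 0.89). For Bin1 they were Stard3 (0.69), Map7d1 (0.68) and Taldo1 (0.66), and for Mapt Map2k2 (0.62), Cd320 (0.58) and Smg9 (0.57). The highest values were lower for Gsk3b (Acp2 0.56, Bmpr1b 0.56, Gtf2e1 0.51), the Cdk5r1 locus (Fbxw11 0.50, Mthfsd 0.49, Kbtbd2 0.48) and Cdk5 (Slc9a3r1 0.49, Tor1aip1 0.47, Neu4 0.47).

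Genes that act on tau with or against these kinases were as level between genotypes. Of 32 further kinases of tau, 0 passed in the average over sex and feed (median difference −0.01; −0.01 over all loci as well). The smallest p values were those of Mapk9, a stress-activated kinase (−0.26 ± 0.14, adjusted p = 0.390 in limma), and Mapk3, which encodes ERK1 (0.08 ± 0.04, adjusted p = 0.397). Of 25 phosphatase genes and regulators, 0 passed. Ppp2r1a, the scaffold of the main tau phosphatase PP2A, differed by −0.07 ± 0.04 (adjusted p = 0.419 in limma). Of 24 measured microtubule-associated proteins and tubulins, 0 passed. Stmn1, which destabilises microtubules, had the smallest p at 0.16 ± 0.07 (adjusted p = 0.223 in limma), and in females on restricted feed it was 0.50 ± 0.13 and passed (adjusted p = 0.0255).

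Of 24 genes of tau turnover and modification, 2 rose: Lgmn, a lysosomal protease of microglia and other cells that can cleave tau (0.19 ± 0.04, adjusted p = 0.00214 in limma), and Ogt, which adds the sugar GlcNAc to tau and many other proteins (0.17 ± 0.04, adjusted p = 0.0220). Both also passed in females on restricted feed, at 0.35 each. Of 17 measured partners of Bin1 and endocytic genes, Bin2, the relative of Bin1 in white blood cells and microglia, rose by 0.45 ± 0.06 (adjusted p = 5.32e-07 in limma) while Bin1 itself was at −0.01. The Bin2 locus rose by 0.86 ± 0.13 in females on restricted feed, and its genotype by sex interaction was 0.49 ± 0.13 (adjusted p = 0.0477). No locus was called for this interaction with a replicate block or without FWT replicate 2. Of 16 partners of Fyn only the Prnp locus, marked by the transgene, passed (1.84 ± 0.04). Beside these, 5 of 10 microglia markers rose in AD mice, for example C1qa (0.47) and C1qb (0.45), as did 2 of 9 astrocyte markers, Gfap (0.71) and Sox9 (0.15). Of 12 neuron markers 0 did. The summed FPKM of the 10 microglia markers ran from 50.9 to 109.6 in control and from 71.3 to 194 in AD mice, and its part in the values of Bin2 and Lgmn was not tested.

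With feed, where 0.141% of all loci were called, none of these 6 lists had a member past the threshold on average. The smallest p values were those of Dync1h1, the dynein motor (−0.09 ± 0.03, adjusted p = 0.108 in limma), and Synj1, a phosphatase of synaptic vesicle endocytosis (−0.52 ± 0.15, adjusted p = 0.181). With sex, where 50.5% of loci were called, 15 of 32 kinases passed (13 lower in females), 16 of 25 phosphatase genes (16 lower), 8 of 24 microtubule genes (4 lower), 9 of 24 turnover genes (8 lower), 8 of 16 Fyn partners (7 lower) and 8 of 17 Bin1 partners (8 lower). Examples lower in females are Camk2a, the synaptic calmodulin-dependent kinase (−0.27 ± 0.05), Ppp2r5e, a regulatory subunit of PP2A (−0.24 ± 0.03), Map2, the dendritic relative of tau (−0.34 ± 0.05), and Ogt (−0.35 ± 0.04). Tubb3, a neuronal tubulin, was higher (0.25 ± 0.03), each with an adjusted p of at most 1.11e-05 in limma.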

How the data were processed

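The deposited values are FPKM in a table of 85 columns, each matched to a sample by its label. Per the submitters' processing notes, the authors used Trimmomatic 0.38, HISAT2 and StringTie 1.3.4d on GRCm38.p6, with no HISAT2 version or options stated. FPKM holds no read counts, low values were no multiples of a common step, and depth is unknown; totals ran from 939248 to 1066927 FPKM. Labels give no litter, batch or date, and p-values measure the spread between mice.

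Rows of 1 symbol were summed. Loci reaching 1 FPKM in 10 or more libraries were tested, scaled by median-of-ratios factors (0.876 to 1.10, from 19481 rows). limma 3.58.1 (R 4.3.3, statmod 1.5.0) was fitted to log2(scaled FPKM + 1) with 8 group means, trend and robust prior (77 residual degrees of freedom, 14 comparisons, two-sided), and was tested on simulated data. A positive difference means higher in AD mice, on restricted feed or in females. Correlations used numpy 2.4.6 and scipy 1.17.1, shuffling mice within groups, two-sided, adjusted by Benjamini-Hochberg in families of 36, 90 and 18.

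All 9 genes are named. Of each list the up to 4 passing genes with the smallest p were eligible, or else the 2 with the smallest p, and of those nearest to each gene 3. Some genes these rules take are not reported here. The genes and lists were chosen with earlier results of these data known. Alternatives were pseudocount 0.1, no filter, a filter of 5 FPKM, FPKM as deposited, equal totals, no trend, array weights, a replicate block, covariates and left-out libraries. The covariates for neuron markers and for the share of loci without a symbol were added after the data were seen.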

Additional observations from a re-analysis of the deposited data

Results flagged for a closer look

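Among the groups of 10 mice, 8 of 27 sets of values of 1 gene in 1 group held a mouse far from the rest (its gap to the next mouse relative to the range was above the 95% critical value); chance flags about 5% of sets. In MWTMR, replicate 11 was lowest for Gsk3a (13.5 scaled FPKM), Cdk5 (21.3) and Fyn (58.6). The same library had 9.15% of its FPKM in loci without a symbol and 19573 rows at 1 FPKM or more, the highest of its group. Gsk3b was at 5.27 in MWTMR replicate 9 and at 6.08 in FWTMR replicate 9. The Cdk5r1 locus was at 11.3 in FWT replicate 1, 5.96 in MWTMR replicate 6 and 12.4 in FWTMR replicate 6. Their causes were not tested.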

How the results depend on the processing

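In the 13 comparisons other than sex the number of the 9 genes called was 0, with these exceptions: 1 in females on standard feed between genotypes with array weights (Fyn, 0.17, adjusted p = 0.00817 in limma), 0 to 1 there with each library left out in turn (Fyn, 0.15 to 0.19, called without FAD replicate 5), and 1 for feed in AD males with the share of loci without a symbol as a covariate (Mark1, 0.27). Between sexes it was 3, and 4 with FPKM as deposited or equal totals (Mapt and Bin1 added, Fyn lost), 5 with tissue covariates (Mapt 0.11 and Bin1 0.07 added), 1 with a neuron covariate, and 2 with the share of loci without a symbol as a covariate, under which Gsk3a turned to 0.0847 and passed and Fyn to 0.00267. With array weights Cdk5 passed between sexes (−0.20), and with 1 of 14 libraries left out in turn as well (−0.19 at most in size); Gsk3b passed without MWTMR replicate 9 (−0.25). The second row of Mapt alone differed by 0.09 with genotype and 0.17 with sex, the first by 0.01 and 0.01, and none passed. Of 2564 alternative values of the 9 genes, 20 changed call or reversed; among the other 2544, 180 that passed in neither case changed sign.

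Counts over all loci moved more. For genotype on average 370 loci became 204 with a filter of 5 FPKM and 1158 with array weights, for feed 30 became 8 with tissue covariates and 218 with the share of loci without a symbol, and for sex 10747 became 4425 with that share and 14315 without a filter. In strata of genotype the counts ran from 3 to 40 and from 14 to 701 in males and from 46 to 1341 and from 138 to 442 in females, in standard and restricted feed. For feed they ran from 0 to 228 and 0 to 47 in control and AD males, and from 5 to 183 and 0 to 12 in control and AD females. The genotype by sex interaction ran from 0 with a replicate block to 2396 with array weights, and from 0 to 1528 as single libraries were left out. With FPKM as deposited the share of positive calls went from 32.8% to 13.6% for the genotype by sex interaction, from 68.3% to 56.2% for genotype in females on restricted feed and from 83.3% to 100% in males on restricted feed; with equal totals it went from 63.3% to 79.1% for feed. Of 281 same-numbered pairs 34 had r over 0.1 (median −0.01). Pairs of different number are not given beside them, so whether replicate numbers carry a shared factor was not tested. The 3 libraries low in Gsk3b were all replicate 9. The Cdk5r1 locus was low in replicate 6 of MWTMR, FWTMR and FAD, and its other low libraries had other numbers. With a replicate block the count of the 9 genes called was the same in 14 of 14 comparisons (3 between sexes, 0 elsewhere). Depth is unknown, and precision rests on 10 or 11 mice a group.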
